A study of Mus musculus with 10 samples.

Results

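The CCAAT/enhancer-binding protein (C/EBP) family was followed across mammary epithelial cells (MECs) and mammary gland macrophages of mice in which *Cebpb* was floxed in every animal and deleted, in the mutants, in cells that express CSF1R. The 7 members, taken by name from the 55487 genes of the count tables, are *Cebpa*, *Cebpb*, *Cebpd*, *Cebpe*, *Cebpg*, *Cebpz* and *Ddit3*. All samples came from 10-wk-old female BALB/c mice in diestrus. CebpbΔM mice carried *Csf1r-iCre* and *Cebpb* fl/fl, and the WT controls were Cre-negative animals with the same floxed alleles. The *Csf1r* promoter that drives Cre is active in myeloid cells in general, so the deletion is not limited to mammary gland macrophages. MECs (2 WT and 2 CebpbΔM libraries) were purified from digested glands by depletion of cells carrying lineage markers, and macrophages (2 WT and 4 CebpbΔM libraries) by positive selection for F4/80. Libraries were made by a low-input mRNA method.

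C/EBP proteins are basic leucine zipper (bZIP) transcription factors that bind DNA as dimers, with one another or with other bZIP proteins. C/EBPα and C/EBPβ direct myeloid differentiation and macrophage gene expression, C/EBPε drives late granulocyte maturation, and C/EBPβ and C/EBPδ respond to inflammatory and hormonal signals in many tissues, the mammary epithelium included. C/EBPγ and CHOP, the product of *Ddit3*, have short or altered activation regions and act largely through the partners they bind, CHOP being a stress-induced member. *Cebpz* shares the name but not the zipper; its product binds CCAAT sequences and takes part in ribosome production.

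The stretch of coding DNA that specifies the start of the DNA-binding basic region shows how alike the members are, and is printed because similar genes could share reads. The 54 bases below were taken from GENCODE release M21 transcripts (GRCm38) at an equal distance before the leucine zipper, 5′ to 3′ on the coding strand, and capitals mark the 43 positions at which *Cebpa*, *Cebpb*, *Cebpd* and *Cebpe* are identical. *Cebpz* has no such stretch.

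Cebpa: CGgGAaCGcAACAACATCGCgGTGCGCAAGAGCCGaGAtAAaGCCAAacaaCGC

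Cebpb: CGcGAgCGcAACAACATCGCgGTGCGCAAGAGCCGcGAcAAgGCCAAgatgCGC

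Cebpd: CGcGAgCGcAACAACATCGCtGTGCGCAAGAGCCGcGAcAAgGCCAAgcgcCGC

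Cebpe: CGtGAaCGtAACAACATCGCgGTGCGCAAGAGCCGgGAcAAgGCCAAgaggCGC

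Cebpg: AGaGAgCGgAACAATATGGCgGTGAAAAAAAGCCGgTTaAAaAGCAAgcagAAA

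Ddit3: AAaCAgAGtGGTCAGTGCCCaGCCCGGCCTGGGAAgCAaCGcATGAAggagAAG

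These stretches lie at chr7:35120286-35120339 (*Cebpa*, plus strand), chr2:167689706-167689759 (*Cebpb*, plus), chr16:15887916-15887969 (*Cebpd*, plus), chr14:54710701-54710754 (*Cebpe*, minus), chr7:35050579-35050632 (*Cebpg*, minus) and chr10:127295897-127295950 (*Ddit3*, plus). In this coding DNA *Cebpb* and *Cebpd* were the closest pair, with 50 of 54 bases identical, and *Cebpb* matched *Cebpe* at 49. *Cebpg* matched *Cebpb* at 33 bases, and *Ddit3*, whose basic region is known to lack the usual DNA contacts, matched it at 15. Over the whole transcripts, the genes were compared by their longest exact shared runs only. The longest exact run shared by transcripts of 2 members was 29 nt (*Cebpa* and *Cebpb*), shorter than a sequenced read. *Cebpa*, *Cebpb* and *Cebpd* have 1 exon each, and *Cebpb* is among the most GC-rich of mouse transcripts, at 67.2% as compared to a median of 49.1% over 21901 protein-coding genes, above 99.7% of them. *Cebpa* (62.6%) and *Cebpe* (61.5%) are also GC-rich, whereas *Cebpg* (43.3%) and *Cebpz* (43.4%) lie below the median.

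The libraries held 25310926 to 27008166 counted read pairs in MECs and 16935000 to 20174722 in macrophages. Macrophage identity was checked with 14 macrophage markers. Their summed level, in counts scaled to library size (CPM, after TMM scaling), was 32.9 to 47.4 CPM in MECs, 4008 to 6043 CPM in WT macrophages and 7053 to 9434 CPM in CebpbΔM macrophages. *Adgre1*, which encodes F4/80, had at most 13 counts in a MEC library and 3502 to 6754 in the macrophage libraries. Markers of other cell types were also present in the macrophage libraries. The 12 luminal markers summed to 10648 to 11187 CPM in WT and 5842 to 8030 CPM in CebpbΔM macrophages, as compared to 29350 to 37754 CPM in MECs. The 10 basal markers went the other way between genotypes, with all 10 fold changes above 0 in CebpbΔM as compared to WT macrophages (median 0.83 log2 units, none called by the QL test). Their sums overlapped between genotypes, at 1039 to 1471 CPM in WT and 895 to 3539 CPM in CebpbΔM macrophages, beside 6641 to 8258 CPM in MECs. Summed fibroblast markers were 6676 to 7141 CPM in WT and 3372 to 7735 CPM in CebpbΔM macrophages, beside 5294 to 6478 CPM in MECs. Endothelial markers summed to 1606 to 1805 CPM in WT and 1000 to 2243 CPM in CebpbΔM macrophages as compared to 102 to 146 CPM in MECs, and all 7 were called higher in macrophages in both genotypes. Dendritic cell markers summed to 94.3 to 165 CPM in macrophages and 3.07 to 5.96 CPM in MECs, and adipocyte markers to 409 to 1122 CPM and 31.1 to 33.8 CPM. Most of the adipocyte sum was *Fabp4* (means of 460 CPM in WT and 739 CPM in CebpbΔM macrophages). The highest mean of the other adipocyte markers was 7.55 CPM (*Cfd* in WT macrophages), and *Adipoq* was at 2.40 CPM in WT and 2.19 CPM in CebpbΔM macrophages. The part of these cell types in the genotype and cell-type differences below was not tested. Cell type also went with the isolation method and the count table, so these cannot be told apart in any cell-type difference below. In such bulk samples, fewer cells of a type and less RNA per cell cannot be told apart.

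*Cebpb*, the deleted gene, was barely detected in any library. It lies on chromosome 2 (GRCm38, chr2:167688915-167690418, plus strand, a single exon; ENSMUSG00000056501) and encodes the C/EBPβ activator and inhibitor isoforms from 1 mRNA. In macrophages it was counted 13 and 15 times in the WT libraries and 16, 13, 5 and 4 times in CebpbΔM libraries 4, 5, 6 and 7. The genotypes overlapped, since CebpbΔM library 4 exceeded both WT libraries and only libraries 6 and 7 fell clearly below them. After TMM scaling this is 0.681 ± 0.044 CPM (SD, n = 2) in WT and 0.488 ± 0.280 CPM (SD, n = 4) in CebpbΔM macrophages. *Cebpb* stayed under the level of 1 CPM that a gene had to pass in 2 or more libraries, so it had no test in macrophages under the main filter. Pooled counts gave a CebpbΔM to WT ratio of 0.707, with a 95% exact interval of 0.423 to 1.2 that covers counting error only. Without a filter, edgeR's quasi-likelihood (QL) test gave a log2 fold change of -0.49 with an adjusted p of 0.895. A loss of *Cebpb* RNA in the CebpbΔM macrophages was thus not detectable at this depth, and the transcript does not check the genotype labels. The study reported the deletion by other means. In macrophages grown from CebpbΔM bone marrow, its immunoblot found no C/EBPβ isoform, and its quantitative PCR found no *Cebpb* mRNA after lipopolysaccharide. Its staining of CebpbΔM glands found no C/EBPβ in cells with CSF1R. The size and position of the floxed part are not given in the sources used here.

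In MECs no genotype difference of *Cebpb* was called. WT MECs had 25 and 28 counts and CebpbΔM MECs had 69 and 42, or 1.07 ± 0.089 and 2.21 ± 0.828 CPM (SD, n = 2 each). The MEC genotypes did not overlap. The difference of 1.06 on the log2 scale (SE 0.47) had an unadjusted p of 0.0457 and, with Benjamini-Hochberg adjustment over 15698 genes in edgeR's QL test, an adjusted p of 0.889. It was 0.64 without CebpbΔM MEC library 1 and 1.37 without CebpbΔM MEC library 3. Macrophage and MEC levels differed by -2.16 log2 units among CebpbΔM libraries (SE 0.64) and by -0.65 among WT libraries (SE 0.78). *Cebpb* passed the filter through MEC libraries alone, so these differences are a description and their p is not given. The interaction of genotype and cell type was -1.51 (SE 1.02) in the same fit. It is likewise a description, and whether the genotype effect differs between the cell types is not decided here.

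Part of the *Cebpb* locus is shared with another gene. *Tmem189*, on the opposite strand, overlaps 312 of its 1504 exonic nt (20.7%). *Tmem189* was counted 165 to 251 times in MECs and 278 to 573 times in macrophages, more often than *Cebpb* in every library. The reads were counted with a reverse-strand setting, but whether the low-input kit marks strand is not given in the sources used here, so exchange of reads between the pair was not tested. The primers the study used for quantitative PCR of *Cebpb* are printed because they fix the part of the transcript that its own assay reads.

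sense: TGATGCAATCCGGATCAA

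antisense: CACGTGTGTTGCGTCAGT

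Each primer (5′ to 3′, shown whole in capitals) matched the *Cebpb* transcript exactly once, the sense primer at chr2:167690109-167690126 and the antisense primer, as its reverse complement, at chr2:167690154-167690171. Both sites lie after the coding region and outside the overlap with *Tmem189*.

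**Figure D1:**
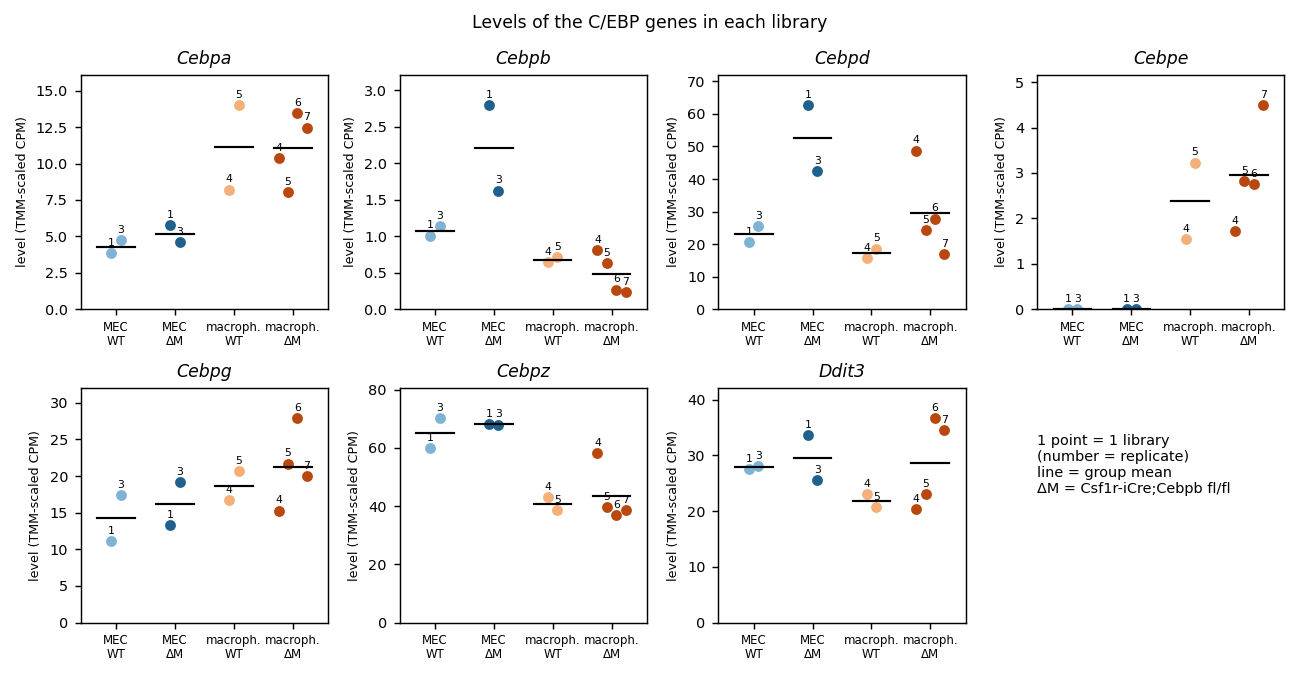
Level of each C/EBP gene (vertical axis, TMM-scaled CPM on a linear scale from 0) in the 10 libraries, by cell type and genotype, where each point is 1 library with its replicate number and each line a group mean. *Cebpd* in CebpbΔM MECs (42.3 and 62.7 CPM) lies above WT MECs (20.7 and 25.6 CPM), *Cebpe* is at 0 in all MEC libraries, and *Cebpb* stays under 3 CPM everywhere.

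*Cebpd* had the largest genotype difference of the members tested in MECs. The gene (chr16:15887286-15891031, plus strand) encodes C/EBPδ, an acute-phase and growth-arrest factor. In MECs it was counted 514 and 633 times in WT and 1546 and 1093 times in CebpbΔM libraries, which is 23.2 ± 3.5 CPM and 52.5 ± 14.4 CPM (SD, n = 2 each). Both CebpbΔM MEC libraries were above both WT libraries, and the difference was 1.19 on the log2 scale (SE 0.25), or 2.29-fold. Its unadjusted p of 0.000645 placed it 77th of the 15698 genes, but its adjusted p of 0.132 in edgeR's QL test missed the threshold of 0.05 for a call. The likelihood ratio test that the study's methods name gave an adjusted p of 0.00468 and DESeq2 gave 0.00597, and both called it. Without CebpbΔM MEC library 3 the QL test also called it (adjusted p = 0.00344). Over the QL test and its 11 alternatives the difference stayed between 0.91 and 1.43 log2 units. The adjusted p ranged from 0.00344 to 1.0, the latter in a fit of all 10 libraries.

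In macrophages, *Cebpd* was counted 316 and 392 times in WT libraries 4 and 5, and 960, 502, 515 and 284 times in CebpbΔM libraries 4 to 7. Levels were 17.2 ± 2.0 CPM (SD, n = 2) in WT and 29.5 ± 13.6 CPM (SD, n = 4) in CebpbΔM. The genotypes overlapped, because CebpbΔM library 7 (17.0 CPM) lay between the WT libraries while library 4 reached 48.8 CPM. The log2 difference of 0.75 (SE 0.39, adjusted p = 0.641, QL test) did not pass the threshold and fell to 0.40 without CebpbΔM library 4. That library also had the highest summed level of the 10 basal epithelial markers, 3539 CPM, as compared to 895 to 2295 CPM in the other CebpbΔM and 1039 to 1471 CPM in WT macrophages. The part of basal epithelial RNA in the *Cebpd* level was not tested. The interaction of genotype and cell type for *Cebpd* was -0.40 (SE 0.54, adjusted p = 1.0), so no difference between its MEC and macrophage effects was shown. *Spidr*, a DNA repair gene on the opposite strand that overlaps 562 of its 3746 exonic nt, differed by 0.22 in MECs (SE 0.23, adjusted p = 1.0) and by 0.33 in macrophages (SE 0.29, adjusted p = 0.807). It too was highest in CebpbΔM macrophage library 4, at 38.7 CPM, beside 26.5 to 28.0 CPM in libraries 5 to 7 and 16.8 and 30.2 CPM in WT, and exchange of reads with *Cebpd* was not tested.

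**Figure D2:**
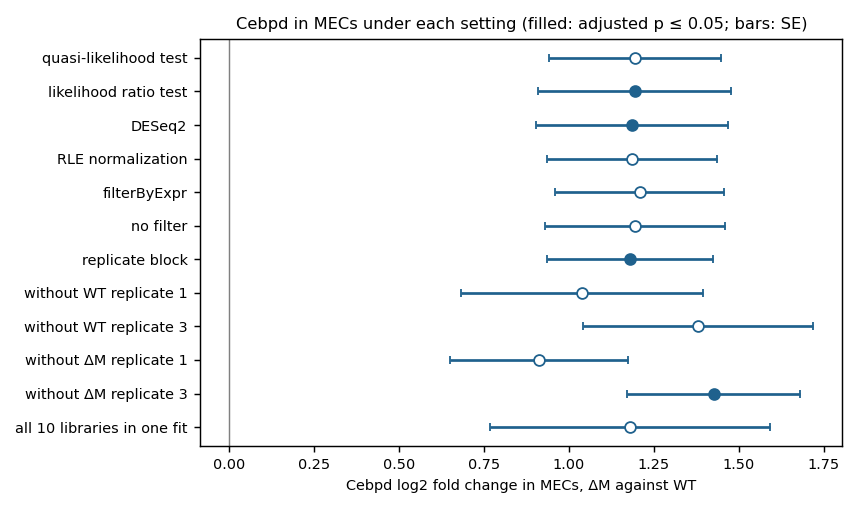
Log2 fold change of *Cebpd* in MECs, CebpbΔM against WT (horizontal axis, bars are SE), under the QL test and each alternative named on the vertical axis, with filled points for an adjusted p of 0.05 or less. All 12 estimates lie between 0.91 and 1.43, and 4 of them are called.

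*Cebpa*, which encodes the factor that establishes the granulocyte and monocyte lineages, was higher in macrophages than in MECs in both genotypes. Its level (chr7:35119293-35121928, plus strand) was 3.83 and 4.74 CPM in WT MECs and 5.76 and 4.61 CPM in CebpbΔM MECs. In macrophages it was 8.20 and 14.0 CPM in WT and 10.4, 8.06, 13.5 and 12.5 CPM in CebpbΔM libraries 4 to 7. No macrophage library fell within the MEC range. The difference was 1.37 log2 units in WT (SE 0.37, adjusted p = 0.0190) and 1.10 in CebpbΔM (SE 0.33, adjusted p = 0.0241), by edgeR's QL test over 18323 genes in the 10 libraries. The WT call was lost without WT MEC library 1 (adjusted p = 0.127), WT MEC library 3 (0.0722) or WT macrophage library 5 (0.117). The CebpbΔM call was lost without CebpbΔM MEC library 1 (0.0821) or 3 (0.148). Between genotypes *Cebpa* differed by 0.29 in MECs (SE 0.34, adjusted p = 1.0) and by -0.03 in macrophages (SE 0.32, adjusted p = 0.992).

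*Cebpe* was the one member not counted in MECs, with 0 in all 4 libraries. In macrophages (chr14:54710360-54712174, minus strand) it was counted 31 and 68 times in WT and 34, 58, 51 and 75 times in CebpbΔM libraries. Taking 3 counts over the MEC libraries of a genotype as the limit, *Cebpe* was at least 39.4-fold higher in WT macrophages and at least 49.6-fold higher in CebpbΔM macrophages than in the matching MECs, on the TMM-scaled CPM. It passed the filter through the macrophage libraries alone, so a call against MECs was fixed by the filter and its p is not given. C/EBPε is best known from granulocytes, and its macrophage level of 2.39 ± 1.19 CPM (SD, n = 2) in WT and 2.95 ± 1.14 CPM (SD, n = 4) in CebpbΔM stood beside neutrophil markers that were mostly near 0. Of the 10 markers, *Ly6g* and *Camp* were at 0 in every macrophage library and *S100a8*, *S100a9*, *Cxcr2* and *Ngp* had means of 0 to 0.254 CPM in the macrophage groups. *Mmp8* was at 2.16 CPM in WT and 0.072 CPM in CebpbΔM macrophages, while *Csf3r* was at 22.7 CPM in WT and 32.04 CPM in CebpbΔM macrophages and *Retnlg* at 2.18 and 2.73 CPM. The summed list was 120 to 171 CPM in WT and 62.2 to 335 CPM in CebpbΔM macrophages, most of it *Ltf* (118 and 132 CPM), which MECs carried at higher levels. Summed eosinophil markers were 21.4 to 25.5 CPM in WT and 37.3 to 95.8 CPM in CebpbΔM macrophages, most of it *Ear2* (means of 18.1 and 53.8 CPM). *Siglecf* (1.604 and 3.63 CPM) and *Ccr3* (1.28 and 2.33 CPM) had higher means in CebpbΔM than in WT, *Epx*, *Ear1* and *Ear6* were at or near 0, and *Prg2* (0.807 and 0.474 CPM) and *Il5ra* (1.69 and 0.497 CPM) had lower means in CebpbΔM. The part of either cell type in the *Cebpe* level was not tested. Between macrophage genotypes *Cebpe* differed by 0.28 log2 units (SE 0.56, adjusted p = 0.938), within the spread of the libraries.

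*Cebpg*, *Cebpz* and *Ddit3* had at least 276 counts in every library and did not differ by genotype beyond the spread of the libraries. *Cebpg* (chr7:35046422-35056573, minus strand) was between 11.1 and 27.9 CPM in all 10 libraries, with group ranges that overlapped throughout. Its cell-type difference was 0.39 in WT (SE 0.33, adjusted p = 0.432) and 0.38 in CebpbΔM (SE 0.29, adjusted p = 0.346). The former was 0.0989 without WT MEC library 1 and 0.74 without WT MEC library 3, and the latter 0.14 without CebpbΔM MEC library 1 and 0.67 without CebpbΔM MEC library 3. *Ddit3* (chr10:127290774-127296288, plus strand) was at 27.6 and 28.1 CPM in WT MECs and 33.7 and 25.6 CPM in CebpbΔM MECs. In macrophages it was at 23.1 and 20.7 CPM in WT and at 20.4, 23.1, 36.6 and 34.6 CPM in CebpbΔM libraries 4 to 7. CebpbΔM libraries 6 and 7 were high and libraries 4 and 5 close to WT, and the genotype difference of 0.36 (SE 0.28, adjusted p = 0.780) did not pass the threshold. A second annotated *Ddit3* entry of 105 nt had no count in any library.

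*Cebpz* (chr17:78919006-78937066, minus strand) was lower in macrophages than in MECs in the CebpbΔM comparison. It was at 60.0 and 70.1 CPM in WT MECs, 68.3 and 68.0 CPM in CebpbΔM MECs and 43.2 and 38.5 CPM in WT macrophages. Among CebpbΔM macrophages, libraries 5, 6 and 7 were at 39.7, 36.8 and 38.6 CPM, and library 4 stood apart at 58.2 CPM. No macrophage library reached the MEC range. The difference was -0.65 log2 units in CebpbΔM (SE 0.20, adjusted p = 0.0293) and -0.67 in WT (SE 0.24, adjusted p = 0.0639), of which the QL test called the first and not the second. The WT difference was called by the likelihood ratio test (adjusted p = 0.0493), by DESeq2 (0.0218), with RLE scaling (0.0456) and without CebpbΔM macrophage library 4 (0.0317). Leaving out CebpbΔM MEC library 1 or 3, or CebpbΔM macrophage library 5, 6 or 7, raised the first adjusted p to between 0.0670 and 0.124.

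In the WT comparison of macrophages with MECs the QL test called 2 of 7 members, *Cebpa* and *Cebpe*, both higher in macrophages. Of the 18323 genes tested it called 25.5% in either direction (14.8% higher and 10.7% lower). In the CebpbΔM comparison it called 4 of 7, *Cebpa* and *Cebpe* higher and *Cebpb* and *Cebpz* lower, beside 33.7% of all genes (18.9% higher and 14.7% lower). The likelihood ratio test and DESeq2 each called 3 of 7 in WT, with *Cebpz* lower in addition. In CebpbΔM the former called 4 and the latter 5, with *Cebpd* lower in addition (-0.87, adjusted p = 0.0438). Libraries of the cell types did not overlap for 6 of 7 members in WT and 4 of 7 in CebpbΔM, as compared to 65.1% and 52.9% of all genes. These counts include *Cebpe* in both comparisons and *Cebpb*, which passed the filter through 1 cell type alone, so they are a description and do not set the family apart from other genes.

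Between genotypes no member was called by edgeR's QL test in either cell type. In MECs 0 of 6 members tested were called (0.051% of all genes were, 8 of 15698, with 0.0446% higher and 0.00637% lower), 2 of 6 had an unadjusted p under 0.05 (*Cebpb* and *Cebpd*; 5.42% of all genes did), and 1, *Cebpd*, was called by the likelihood ratio test and by DESeq2. The same 2 members did not overlap between genotypes, which was so for 28.2% of all genes. All 6 fold changes were above 0, with a median of 0.25 log2 units, as compared to -0.01 over all genes. Those of *Cebpg*, *Cebpz* and *Ddit3* fell as low as -0.11, -0.03 and -0.08 when single MEC libraries were left out. In macrophages 0 of 6 members were called, as was 0% of 17772 genes, and 0 of 6 members had an unadjusted p under 0.05, were called by the likelihood ratio test or DESeq2, or were without overlap (18.6% of all genes were). Over all genes in macrophages, 1534 had an unadjusted p under 0.05, and the likelihood ratio test called 138 and DESeq2 201. The median of the 6 members there was 0.22, as compared to 0.00 over all genes. For the interaction, 0 of 7 members were called by the QL test, as was 0% of 18323 genes, and 0 of 7 had an unadjusted p under 0.05, beside 5.19% of all genes. The likelihood ratio test and DESeq2 called 0 of 7 members for the interaction, and 53 and 27 of all genes. Of the 7, *Cebpe* was at 0 in all MEC libraries (interaction SE 348) and could not be called. *Cebpb* passed the filter through MECs alone, so these interaction counts are a description.

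**Figure D3:**
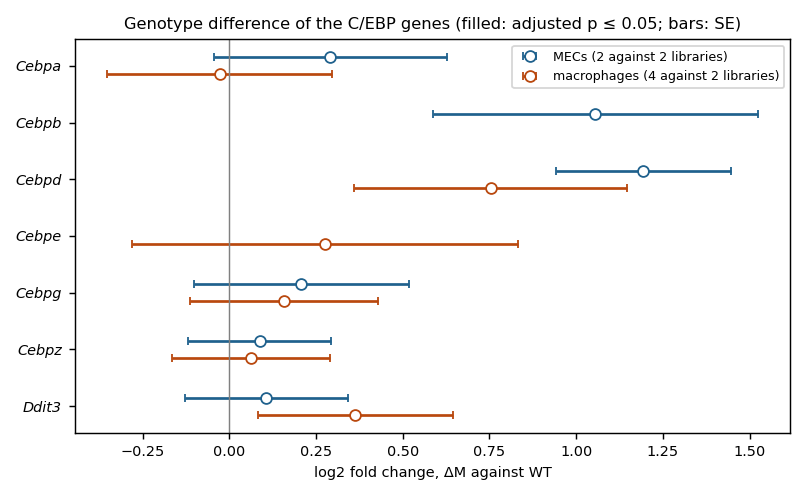
Log2 fold change between genotypes (horizontal axis, CebpbΔM against WT, bars are SE) for the members tested in MECs (blue) and macrophages (orange), from edgeR's QL test. No point is filled because no member reached an adjusted p of 0.05, and *Cebpd* lies at 1.19 in MECs and 0.75 in macrophages, the latter falling to 0.40 without CebpbΔM library 4.

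**Figure D4:**
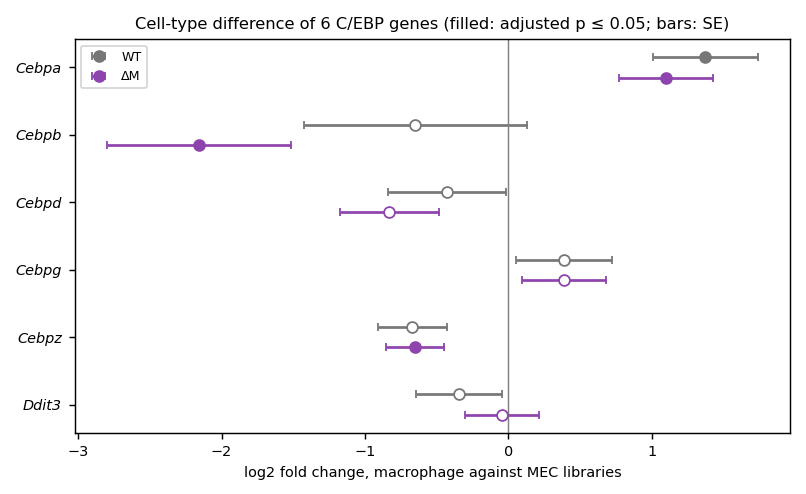
Log2 fold change of macrophage against MEC libraries (horizontal axis, bars are SE) for 6 members in WT (grey) and CebpbΔM (purple), with filled points for an adjusted p of 0.05 or less. *Cebpa* is filled on the macrophage side in both genotypes, and *Cebpz* on the MEC side in CebpbΔM. *Cebpb* is also filled on the MEC side in CebpbΔM, but it passed the filter through MECs alone, so its fill is a description only. *Cebpe* is left out because it was at 0 in MECs.

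Levels can be compared between members only per length, here as CPM per kb of all annotated exons of a gene. For *Ddit3* this length was 1713 nt, while its longest protein-coding transcript has 890 nt. The levels per kb and the shares below depend on the length used. In WT MECs the order from high to low was *Ddit3* (16.3 ± 0.2), *Cebpz* (14.0 ± 1.5), *Cebpd* (6.19 ± 0.93), *Cebpg* (2.54 ± 0.79), *Cebpa* (1.63 ± 0.24), *Cebpb* (0.712 ± 0.059) and *Cebpe* (0), in CPM per kb (SD, n = 2). No neighbours in this order overlapped in WT MECs. In CebpbΔM MECs the order was the same, but *Cebpd* was at 14.0 ± 3.8 CPM per kb and overlapped *Cebpz*, and *Cebpb* overlapped *Cebpa*. In WT macrophages *Cebpa* (4.21 ± 1.56 CPM per kb) stood ahead of *Cebpg* (3.32 ± 0.50) and overlapped both it and *Cebpd* (4.59 ± 0.53), while *Cebpb* came last at 0.453 ± 0.029, below *Cebpe* at 1.93 ± 0.96. In CebpbΔM macrophages every neighbour pair overlapped except *Cebpe* and *Cebpb*, which was again last at 0.325 ± 0.186 CPM per kb (SD, n = 4). Without division by length, *Cebpz* had the highest mean level in all 4 groups, from 40.9 to 68.2 CPM.

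As a share of the summed CPM per kb of the 6 zipper members, *Ddit3* was the largest component in every group, from 46.0% ± 0.017 (SD, n = 2) in CebpbΔM MECs to 59.6% ± 4.1 (SD, n = 2) in WT MECs. *Cebpd* made up 22.6% ± 1.6 in WT and 36.9% ± 3.0 in CebpbΔM MECs (SD, n = 2 each). *Cebpa* made up 5.94% ± 0.41 in WT MECs and 15.2% ± 4.3 in WT macrophages (SD, n = 2 each). *Cebpb* contributed 0.975% ± 0.629 (SD, n = 4) to 3.84% ± 0.72 (SD, n = 2). Since shares sum to 100%, a rise of one member lowers the others. These shares are of RNA and give no measure of the proteins.

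**Figure D5:**
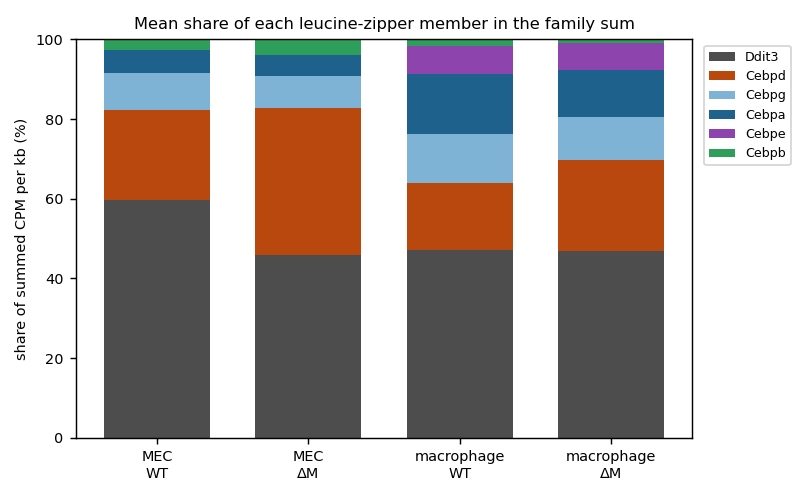
Mean share (vertical axis, percent of the summed CPM per kb) of the 6 leucine-zipper members in each group. *Ddit3* is the largest block in all 4 groups, *Cebpd* is larger in CebpbΔM than in WT MECs (36.9% against 22.6%), and *Cebpe* appears in macrophages alone.

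Genes around the family were examined as 6 lists of relatives, regulators and described targets. None of the lists had a gene called by genotype in either cell type by edgeR's QL test, and calls of the other tools are given beside the genes described. The lists were chosen with earlier results of these data known. Counts under an unadjusted p of 0.05 are to be read beside 5.42% of all genes in MECs and 8.63% in macrophages. Among 35 tested bZIP relatives and dimer partners in MECs, 3 had an unadjusted p under 0.05, all higher, and 1, *Nfil3*, was called by the likelihood ratio test and by DESeq2. *Nfil3*, which encodes a bZIP repressor, was at 99.9 ± 35.0 CPM in CebpbΔM as compared to 40.7 ± 5.8 CPM in WT (SD, n = 2 each; log2 fold change 1.31, SE 0.26, adjusted p = 0.114 in the QL test). In macrophages 7 of 38 relatives were under 0.05, 6 of them higher and none called by any of the 3 tests, led by *Atf6b*, an unfolded protein sensor, at -0.56 (adjusted p = 0.480).

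Among genes described as C/EBPβ targets in macrophages, 6 of 25 in macrophages had an unadjusted p under 0.05, all higher in CebpbΔM, and none was called by the 3 tests. This is to be read beside the higher macrophage marker level of the CebpbΔM libraries. *Il1rn*, the interleukin-1 receptor antagonist, had the smallest p, at 144 ± 29.7 CPM (SD, n = 4) in CebpbΔM and 86.1 ± 4.6 CPM (SD, n = 2) in WT (0.71, SE 0.22, adjusted p = 0.508). In MECs 2 of 14 of these genes were under 0.05. The median over the list was 0.31 in macrophages and -0.16 in MECs.

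The list of the integrated stress response and unfolded protein response, which induces *Ddit3*, had 3 of 32 genes under an unadjusted p of 0.05 in MECs and 5 of 32 in macrophages. *Phgdh*, a serine synthesis enzyme, led in MECs at 0.94 (SE 0.24, adjusted p = 0.239), and *Trib3*, a pseudokinase that binds CHOP and ATF4, led in macrophages at -0.84 (SE 0.27, adjusted p = 0.515). The likelihood ratio test and DESeq2 called *Phgdh* in MECs and no gene of the list in macrophages. Among regulators of C/EBP proteins, 2 of 23 genes were under 0.05 in MECs and none was called by the 3 tests. *Spi1*, the myeloid factor PU.1, led in macrophages at 1.43 (SE 0.26, adjusted p = 0.452), where 3 of 24 genes were under 0.05, and *Spi1* was called by the likelihood ratio test and DESeq2. *Spi1* was at 81.1 ± 18.7 CPM (SD, n = 4) in CebpbΔM and 29.5 ± 2.1 CPM (SD, n = 2) in WT macrophages. All 14 macrophage markers also had fold changes above 0 between these genotypes (median 0.60 log2 units, none called by the QL test). The part of this shift in the *Spi1* level was not tested.

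Granulocyte genes tied to C/EBPα and C/EBPε had 0 of 3 tested genes under 0.05 in MECs and 2 of 7 in macrophages, none called by the 3 tests. *Cd177*, a neutrophil surface protein, led in macrophages at -1.18 (SE 0.35, adjusted p = 0.495), and *Prtn3*, a granule protease, in MECs at -0.46 (SE 0.57, adjusted p = 1.0). Adipogenic genes tied to C/EBPα, C/EBPβ and C/EBPδ had 3 of 9 under 0.05 in MECs and 0 of 14 in macrophages, again with none called. *Klf5*, a zinc finger factor that acts with C/EBPβ and C/EBPδ in adipocyte differentiation, led in MECs at 0.58 (SE 0.21, adjusted p = 0.635), and *Fabp4*, a fatty acid carrier, in macrophages at 0.66 (SE 0.33, adjusted p = 0.617).

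The genes whose levels tracked each member most closely were ranked by Pearson's r of log2 CPM over the 10 libraries, centred within cell type, among at most 12333 candidate genes of at least 5 CPM. For *Cebpd* these were *Zfand5* (r = 0.945), a ubiquitin-binding protein, and *Ctnnbip1* (0.919), an inhibitor of β-catenin. *Cebpe*, at 0 in MECs and so compared over the 6 macrophage libraries in effect, was tracked by *Bcl6* (0.940), a transcriptional repressor. *Cebpa* was tracked by *Nagpa* (0.931) and *Coro2b* (0.914). *Cebpb* was tracked by *Parn* (0.951) and *Cog1* (0.937), *Cebpg* by *Rhobtb1* (0.936) and *Stx4a* (0.922), *Cebpz* by *Trim7* (0.937) and *Rars* (0.927), and *Ddit3* by *Apod* (0.955) and *Tk2* (0.953). These are the highest correlations among many candidates over 10 libraries that share preparation and cell composition, and serve as description only.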

How the data were processed

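The authors trimmed the reads with Trimmomatic, mapped them to GRCm38 with HISAT2 and counted read pairs on Ensembl genes with featureCounts (version 1.6.2, both ends mapped, mapping quality of at least 10, reverse-strand setting). The deposited values are raw counts per gene and library, in 1 table for MECs and 1 for macrophages. All 10 sample columns were used. Per the file headers, the MEC counting run also named a replicate 2 of each genotype, which was not analysed here. Replicates are separate libraries, and p-values measure the spread between them, since the labels do not state that each is a separate animal.

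Symbols came from the reference gene table, which matched 55141 of 55487 genes. The 8951 genes under 300 nt were left out, then a gene was kept in a fit where 2 or more of its libraries exceeded 1 CPM (15698 in MECs, 17772 in macrophages, 18323 over the 10 libraries). Genotypes were compared within each cell type, and cell types and the interaction in 1 fit of 10 libraries, by edgeR's QL test (version 4.0.16, R 4.3.3) with TMM scaling and Benjamini-Hochberg adjustment at 0.05. The study's methods name the likelihood ratio test, which was run as an alternative with DESeq2 (version 1.42.0), relative log expression (RLE) scaling, other filters, a replicate block (within cell type) and each library left out. *Cebpb* was to be tested in macrophages but fell below the filter, so its mean ratio is given. The fits were tested on simulated data with changes of 2 log2 units. The QL test called 91.9% of these changes in MECs, 61.1% in macrophages and 62.6% in the WT cell-type comparison. False calls made up 8.08%, 4.92% and 1.61% of its calls there, so a true change can go uncalled. Levels are TMM-scaled CPM with SD. Coding stretches and primer sites were located with Biopython (version 1.88) on GENCODE M21 (the counts used Ensembl models of the same build), and plots drawn with matplotlib (version 3.10.9). The members, gene lists and tests were chosen with earlier results of these data known. Genes were named by rule: every member, the genes overlapping *Cebpb* and *Cebpd*, and the smallest p in each list (called genes first). The 2 genes most like each member were also named, of which a gene without a symbol is left unnamed. Of the genes overlapping other members, only the second *Ddit3* entry is reported here. The leading gene of 2 lists in MECs is not reported here.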

Additional observations from a re-analysis of the deposited data

Results flagged for a closer look

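The *Cebpz* level in CebpbΔM macrophages held 1 library far from the others, library 4 at 58.2 CPM beside 36.8 to 39.7 CPM in libraries 5 to 7. The gap to its nearest neighbour was 0.864 of the group's whole range, above the limit for 4 samples. Such a gap arises by chance in about 1 in 20 groups, and 7 members were examined in this group. Library 4 was also the highest of the group for *Cebpd* and for the basal epithelial markers, which were at 3539 CPM in it, and the part of these markers in the *Cebpz* level was not tested.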

How the results depend on the processing

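The number of members called in MECs between genotypes rose from 0 to 1 with the likelihood ratio test and with DESeq2, and was 0 to 1 when single libraries were left out. In macrophages and for the interaction it stayed at 0 in every alternative. For the interaction this count includes *Cebpe*, which could not be called, and *Cebpb*, which passed the main filter through MECs alone. Leaving out single libraries gave 1 to 3 members called in the WT cell-type comparison and 1 to 5 in the CebpbΔM one, *Cebpe* and *Cebpb* included. The macrophage log2 ratio of *Cebpb* was -0.48 and ranged from -0.84 to -0.25 as single libraries were left out, and was 0.08 over replicates 4 and 5 alone.

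The labels number replicates alike in both genotypes. Same-numbered MEC libraries deviated together with r = 0.105 and macrophage libraries with r = 0.127 and -0.0861, so the numbers were not taken to pair the samples. With the replicate number as a block, 1 member was called in MECs (*Cebpd*, adjusted p = 0.00642), 0 in macrophages and 0 for the interaction. No paired analysis was possible between cell types because MEC and macrophage libraries share no replicate number. The block also turned 4 small log2 values, *Cebpe*, *Cebpg* and *Ddit3* to -0.0474, -0.0498 and -0.0320 between macrophage genotypes, and *Ddit3* to -0.0860 in the interaction.

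Over replicates 4 and 5 alone, the macrophage differences of *Cebpe*, *Cebpg* and *Ddit3* became -0.0815, -0.0243 and -0.0203. The *Cebpg* interaction became 0.0059 with DESeq2 and 0.0060 with RLE. Leaving out single libraries gave, between genotypes in MECs, -0.11 to 0.60 for *Cebpg*, -0.0316 to 0.23 for *Cebpz* and -0.0781 to 0.27 for *Ddit3*. In macrophages it gave -0.36 to 0.41 for *Cebpa*, -0.16 to 0.90 for *Cebpe* and -0.12 to 0.145 for *Cebpz*. For the interaction it gave -0.64 to 0.13 for *Cebpa*, -0.36 to 0.29 for *Cebpg* and -0.19 to 0.13 for *Cebpz*, and for *Ddit3* in the CebpbΔM cell-type comparison -0.235 to 0.165. None of these values was called, and the cause of the changes was not tested. Of 456 alternative values of members' fold changes, 403 kept direction and call, 12 lost a call, 10 gained one and 31 changed sign, with *Cebpe* between cell types, set against a count of 0, among those kept. Over all genes, the QL test, the likelihood ratio test and DESeq2 called 8, 179 and 161 genes in MECs and 0, 138 and 201 in macrophages. Counts of *Cebpb* were 4 to 69 in a library and those of *Cebpe* 0 to 75, which limits the precision of both. Where leaving out a library left a group with 1, that library was assumed to vary like those of the other groups.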
